A study of Mus musculus with 6 samples.

Results

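The array used here carries 15955 probes whose identifiers start with A_30, the series of 60-base oligonucleotides that Agilent's catalogue designs against mouse long intergenic non-coding RNAs (lincRNAs). They were taken by identifier alone, with no selection on signal, and make up 15955 of 91188 non-control probes. Total RNA came from cultured primary microglia of the mouse; microglia are the macrophages that live in brain tissue. The vector group (3 samples) received vector virus and the sh-U90926 group (3 samples) a virus carrying a short hairpin RNA against the lncRNA U90926, both with a multiplicity of infection (MOI) of 50. Lipopolysaccharide (LPS, 100 ng/ml for 3 h) followed 48 h later in both groups, so every sample was infected and LPS-treated and the data hold no resting cells. The series is titled for a role of microglial U90926 in ischemic stroke, and the comparison asks which lincRNA probes differ when the hairpin is present. The titles give U90926 for all 3 hairpin samples, whereas the source names of replicates 2 and 3 read U90927 and U90928. No A_30 probe carries a gene name. The level of U90926 and the microglial markers, the checks of both labels, were not analysed here.

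LincRNAs are transcripts from loci between protein-coding genes that carry no long open reading frame. Many are spliced and polyadenylated like messenger RNAs, are expressed at low levels and in few cell types, and some act in the nucleus on transcription or chromatin. In macrophages and microglia, LPS signals through Toll-like receptor 4 and NF-kB, and this response is known to change the levels of many lncRNAs.

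Each A_30 probe was spotted at 2 places, and all 15955 sequences were distinct. Many probes came in pairs that read both strands of the same stretch: 3420 of them shared at least 30 bases with the reverse complement of another A_30 probe, in 1814 such pairs. The pair below held the largest fall of any such pair, and capitals mark the 50 bases that are complementary between the members.
A_30_P01033227: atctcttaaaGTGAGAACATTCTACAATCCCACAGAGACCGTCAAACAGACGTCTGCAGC
A_30_P01020928: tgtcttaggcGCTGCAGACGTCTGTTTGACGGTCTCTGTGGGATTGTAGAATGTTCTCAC
A further pair of the same kind also shared 50 bases.
A_30_P01024571: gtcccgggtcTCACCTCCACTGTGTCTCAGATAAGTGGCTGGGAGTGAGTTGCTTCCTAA
A_30_P01018526: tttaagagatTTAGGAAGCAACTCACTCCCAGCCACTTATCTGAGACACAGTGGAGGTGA
The outer ends of these pairs share 10 bases, so the 4 probes can be joined into a stretch of 130 bases. Capitals in the joined sequence mark those 10 bases.
joined stretch: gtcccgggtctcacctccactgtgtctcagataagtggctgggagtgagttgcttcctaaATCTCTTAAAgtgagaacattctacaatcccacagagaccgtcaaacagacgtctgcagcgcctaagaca

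The next sequences are those of other named falls. The first pair is complementary over 28 bases at its ends (capitals), and the second pair likewise.
A_30_P01028762: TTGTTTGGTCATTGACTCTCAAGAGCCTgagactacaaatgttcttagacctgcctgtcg
A_30_P01017643: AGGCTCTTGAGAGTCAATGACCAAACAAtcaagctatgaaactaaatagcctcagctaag
A_30_P01023338: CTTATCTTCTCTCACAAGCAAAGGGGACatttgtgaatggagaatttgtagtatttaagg
A_30_P01024771: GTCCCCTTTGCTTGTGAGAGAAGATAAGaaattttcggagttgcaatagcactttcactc
The following 5 have no such partner among the probes that passed the test.
A_30_P01033281: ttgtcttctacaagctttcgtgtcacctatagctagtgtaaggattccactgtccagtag
A_30_P01028475: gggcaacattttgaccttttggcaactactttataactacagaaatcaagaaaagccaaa
A_30_P01023766: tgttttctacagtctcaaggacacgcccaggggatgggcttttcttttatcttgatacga
A_30_P01023022: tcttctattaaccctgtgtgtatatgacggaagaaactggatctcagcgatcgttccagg
A_30_P01025697: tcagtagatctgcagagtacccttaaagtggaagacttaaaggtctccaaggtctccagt
The 3 probes that rose and are described with their values are shown for contrast.
A_30_P01033385: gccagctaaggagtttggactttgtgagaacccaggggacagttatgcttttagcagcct
A_30_P01019163: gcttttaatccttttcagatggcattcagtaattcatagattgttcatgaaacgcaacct
A_30_P01030957: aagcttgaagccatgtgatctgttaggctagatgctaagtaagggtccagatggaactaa

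Most A_30 probes gave little signal in these cells. A level is the log2 processed signal of a probe, averaged over its spots, minus the 75th percentile of all probes on that array (a signal of 132 to 211). The median A_30 level was -2.55, against -1.57 for the 37176 older catalogue probes with values, whose identifiers start with A_51, A_52 and A_55, and 20.6% of A_30 probes lay above that percentile, against 33.2%. The scanner software marked 6104 A_30 probes (38.3%) as well above background in at least 1 spot on all 6 arrays and 3680 (23.1%) on none. The older probes have 1 spot each, so detection was compared per spot. Of the A_30 spots, 64.0%, 48.6% and 40.8% were well above background in vector replicates 1 to 3 and 64.1%, 57.7% and 43.2% in sh-U90926 replicates 1 to 3. The share followed the replicate number, and the groups overlapped. The A_30 share was below that of the older probes on every array, by between 6.70 and 12.2 percentage points. This gap differed by 0.472 points between the groups (exact permutation test, two-sided, n = 3 against 3, p = 1, where the smallest p the design allows is 0.1). The gaps of the hairpin and the vector samples thus overlapped. In bulk RNA, fewer cells of a type and less RNA per cell cannot be told apart.

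Signal rose with the GC content of the oligonucleotide. Of 442 A_30 probes with under 35% GC, 8.14% were well above background on all 6 arrays, against 82.9% of the 602 probes with 60% GC or more. The older probes ran from 17.8% to 81.9% over the same classes, and in each class between 35% and 60% GC the A_30 share was the lower one. The 3 brightest A_30 probes were rich in GC, and their groups overlapped.
A_30_P01020015: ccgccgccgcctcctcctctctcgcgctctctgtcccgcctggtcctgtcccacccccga
A_30_P01027833: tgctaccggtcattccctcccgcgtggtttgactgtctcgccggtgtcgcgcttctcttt
A_30_P01031448: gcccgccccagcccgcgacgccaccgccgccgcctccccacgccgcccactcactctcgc
A_30_P01020015 (75% GC) had levels of 10.88, 10.99 and 11.57 in the vector samples and 10.78, 10.70 and 11.28 in the sh-U90926 samples, a difference of -0.23 ± 0.37 (log2, SE; adjusted p from limma 1, n = 3 and 3). A_30_P01027833 (60% GC) differed by -0.06 ± 0.41. A_30_P01031448 (83.3% GC) differed by -0.34 ± 0.36. Over 58 bases it is the reverse complement of the promoter window of Akap11, which encodes an anchoring protein for protein kinase A (chr14:78536811-78537110, minus strand, GRCm38.p6).

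The polyadenylation signal AATAAA, which lies shortly before the 3' end of most polyadenylated RNAs, occurred in 3.70% of A_30 probes and its reverse complement TTTATT in 2.94%. Among A_51 probes the shares were 5.32% and 3.80%, among A_52 probes 4.92% and 3.75%, and among A_55 probes 16.4% and 4.14%. Over all 91172 probes they were 10.9% and 3.97%. The small excess over the reverse complement was thus common to A_30, A_51 and A_52 probes, and the large one belonged to A_55. Motif matches are descriptions of the probe, each strand counted separately as printed.

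Partners on the same strand read more alike than partners on opposite strands. In 494 A_30 pairs with a common run of 30 bases or more in the same direction, the levels correlated with r = 0.86 and the log2 differences between groups with r = 0.85. In the 1814 opposite-strand pairs the correlations were 0.19 and 0.44 (Spearman's rho 0.20 for the differences). These are correlations across probe pairs of the same 6 arrays, where base composition and array are shared. Opposite-strand partners lay apart by a median of 1.96 on the log2 scale, against 0.39 for same-strand partners. In 719 opposite-strand pairs 1 member alone was well above background on all 6 arrays, and in 204 of those the partner was on none. Both members were well above background on all 6 arrays in 376 pairs. Partners are different oligonucleotides, so a gap between their signals does not show on which strand the RNA lay.

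Few A_30 probes passed the test, and in the fit without a block most of those that did fell. Of the 15955, 65 had fallen (0.407%) and 10 had risen (0.0627%) in the hairpin samples at an adjusted p under 0.05 (limma, Benjamini-Hochberg adjustment over 91172 probes, n = 3 and 3). Over all probes tested the shares were 0.563% lower (513 probes) and 0.264% higher (241 probes), and over the older catalogue probes, whose identifiers start with A_51, A_52 and A_55, 0.681% and 0.272%. At an unadjusted p under 0.05, 524 A_30 probes were lower and 549 higher, so in this fit no excess of falls was seen at the looser level. The balance there depended on the processing. It was 534 lower and 253 higher with normexp, and 780 and 680 with quantile normalization. Scaled to probes well above background on all 6 arrays, it was 357 and 769. Whether the samples of a group were cultured separately is not in the labels, and p-values here cover sample-to-sample spread alone, part or all of which may be technical. With the replicate number as a block, 269 were lower and 234 higher (1.69% and 1.47%, against 2.34% and 2.59% of all probes and 2.85% and 3.01% of the older ones), and all 75 were among them. A filter that asks for signal well above background throughout 1 or both groups left 7677 A_30 probes, of which 2.88% were lower and 1.25% higher, against 3.80% and 2.99% of all probes and 3.89% and 3.35% of the older ones so filtered. That filter admits probes through the group where they are high, so its counts are descriptions only. Scaling the blocked fit to probes well above background on all 6 arrays changed the split to 244 lower and 559 higher (1.53% and 3.50%), and that of all probes to 2.11% and 5.31%. The count rested on each array: it was 13 lower and 0 higher when vector replicate 1 was left out, 19 and 1 when vector replicate 2 was, and 0 and 0 when vector replicate 3 was. Leaving out a hairpin array gave 17 and 0 (replicate 1), 7 and 0 (replicate 2) or 48 and 0 (replicate 3). In the same 6 fits the share of all probes fell too, to between 0.0% and 0.403% lower and between 0.0% and 0.0735% higher. Within scan run 2 (replicates 2 and 3 of both groups) 5 were lower and 0 higher (0.0121% and 0.0% of all probes), and scan run 1 has 1 array per group. With the slide as a block 35 were lower and 6 higher (0.324% and 0.149% of all probes), 27 of them among the 75. Only slide 2 held arrays of both groups, namely vector replicate 2 and sh-U90926 replicates 2 and 3. The fit with the slide as a block therefore compares 1 vector array with 2 hairpin arrays. A call lost with this block does not show an effect of the slide. All 75 kept their direction in each of these fits and in the other normalizations. The groups did not overlap in any of the 75, so leaving out arrays could not have reversed a direction.

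The falls ran over a wide range of signal. Of the 65, 38 stayed well above background on all 3 sh-U90926 arrays, and among these the median fall was 8.93-fold (range 4.20 to 166), with 5 probes lower by at least 32-fold. A further 9 were on none of those arrays and have only a bound. With these 9 at their bound, the median over all 65 was 9.89-fold. Their mean signal in the vector samples ran from 53.0 to 8414, with a median of 739, so some falls began from dim signals. The 10 rises ended at mean signals of 51.6 to 253 in the sh-U90926 samples. Only 1 of them was well above background on all 3 vector arrays, 7 were on 1 and 2 on none, so most rises were measured against the floor of the array and their fold sizes are not set against those of the falls. Fold sizes also depended on the background correction: with normexp the median was 5.30-fold for the falls and 1.78-fold for the rises. With the slide as a block, which compares 1 vector array with 2 hairpin arrays, most of the falls and most of the rises no longer passed. Joined by ends that share at least 10 bases on either strand, the 65 falls came from 57 separate stretches, 5 of which held several of the probes (13 in all), and the 10 rises from 10.

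Among probes well above background on all 6 arrays, the 5 largest falls were those of A_30_P01028762, A_30_P01024571, A_30_P01027543, A_30_P01025697 and A_30_P01023338; A_30_P01024571 and A_30_P01027543 are described with their overlapping partners. A_30_P01028762 had levels of 4.48, 5.25 and 5.35 in vector replicates 1 to 3 and -3.76, -2.14 and -1.16 in sh-U90926 replicates 1 to 3. It fell by 7.38 ± 0.67 on the log2 scale (SE, 166-fold, adjusted p from limma 0.0103), and 49.8-fold with normexp. Its partner by 28 complementary bases, A_30_P01017643, had levels of 1.73, 1.14 and 1.34 and then of -5.15, -4.31 and -3.48. No sh-U90926 array held that probe well above background. It was 40.9-fold lower by its bound on the processed signal (adjusted p from limma 0.00839) and 6.68-fold lower with normexp. Both of these probes were high in every vector sample and low in every sh-U90926 sample, with no overlap. On which strand the RNA lay was not tested. A_30_P01025697 went from 3.30, 3.48 and 3.62 to -0.92, -2.46 and -1.73. It fell by 5.17 ± 0.45 (35.9-fold, adjusted p from limma 0.00917), and 15.0-fold with normexp. A_30_P01023338 went from 4.24, 3.89 and 4.57 to -0.95, -2.35 and 0.64, and fell by 5.12 ± 0.72 (adjusted p 0.0322). Its complementary partner A_30_P01024771, named after its values were seen, fell by 3.33 ± 0.44 (adjusted p 0.0269, and 0.116 with the slide as a block). In both of these partners sh-U90926 replicate 3 was the highest of the hairpin samples and replicate 2 the lowest.

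The joined stretch of 130 bases held 4 probes that fell, on both strands. A_30_P01024571 had levels of 5.10, 5.92 and 6.05 in the vector samples and -0.80, -0.56 and -0.15 in the sh-U90926 samples. It fell by 6.19 ± 0.40 (73.2-fold, adjusted p from limma 0.00489), and 42.5-fold with normexp. Its reverse complement A_30_P01018526 went from 2.75, 2.45 and 2.47 to -1.32, -1.79 and -1.88. That probe fell by 4.22 ± 0.34 (18.6-fold, adjusted p from limma 0.00824), and 8.20-fold with normexp. A_30_P01033227 went from 5.14, 5.81 and 5.84 to -4.27, -2.28 and -0.97, and fell by 8.10 ± 0.79 (adjusted p 0.0122). Of its sh-U90926 arrays 2 were well above background. A_30_P01020928 went from 3.94, 3.65 and 3.59 to -1.97, -2.21 and -2.16. It fell by 5.84 ± 0.32 (57.3-fold, adjusted p from limma 0.00489), and 20.3-fold with normexp. A_30_P01024571 and A_30_P01033227 run in the same direction, and the others in the opposite one. The stretch was assembled from the probes alone, after their values were seen, and its position in the genome was not analysed here.

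Among probes that no sh-U90926 array held well above background, the words at least mark a bound on the processed signal alone. Where a probe's own value exceeded the array's lowest value well above background, its own value was used. Normexp gave smaller sizes, so these bounds are not limits on the true fold. A_30_P01033281 had processed signals of 3108, 3808 and 2844 in the vector samples and 12.5, 8.15 and 18.7 in the sh-U90926 samples, at least 250-fold lower (adjusted p from limma 0.00489) and 40.2-fold lower with normexp. A_30_P01028475 had 2552, 2451 and 2036 and then 3.44, 10.7 and 23.0, at least 202-fold lower (adjusted p 0.0113) and 31.96-fold lower with normexp. In both, the vector samples lay close together and no sh-U90926 sample was well above background. A_30_P01023766 was at least 110-fold lower (signals of 2059, 862 and 807, then 6.25, 10.2 and 9.72; adjusted p 0.00489) and 16.6-fold lower with normexp. A_30_P01023022 was at least 102-fold lower (signals of 1934, 912 and 647, then 3.44, 8.63 and 7.25; adjusted p 0.00589) and 16.5-fold lower with normexp. In A_30_P01023766 and A_30_P01023022 vector replicate 1 was the highest vector sample. The smallest p of all A_30 probes belonged to A_30_P01032196, named after its values were seen, whose levels of 3.39, 3.49 and 3.53 stood against -2.88, -2.61 and -2.96 (adjusted p 0.00482).

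A group of 6 A_30 probes overlaps a tandem repeat at the promoter of Gm36117, a lncRNA gene of unknown function that lies between Sod2 and Gpr31b in the gene table. The RefSeq promoter window (250 bases before to 50 after the start; chr17:13034494-13034793, plus strand, GRCm38.p6) is shown because all of these probes had lower means in the sh-U90926 samples; capitals mark the 132 bases of repeat, with a unit of 24 bases and 5 full copies.
Gm36117 promoter window: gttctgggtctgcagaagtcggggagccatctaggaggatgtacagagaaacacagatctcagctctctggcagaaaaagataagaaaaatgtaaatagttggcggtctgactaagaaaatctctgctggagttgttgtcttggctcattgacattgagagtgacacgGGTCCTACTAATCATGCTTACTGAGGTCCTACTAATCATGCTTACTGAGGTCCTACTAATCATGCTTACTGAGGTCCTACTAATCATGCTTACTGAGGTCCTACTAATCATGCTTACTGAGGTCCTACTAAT
The 2 probes of the gene's own strand share 34 bases (capitals).
A_30_P01027289: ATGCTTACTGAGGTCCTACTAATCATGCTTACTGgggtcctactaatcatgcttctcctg
A_30_P01030868: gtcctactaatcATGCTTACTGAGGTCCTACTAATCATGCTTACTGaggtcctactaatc
The next 2, of the opposite strand, share 48 bases (capitals).
A_30_P01017545: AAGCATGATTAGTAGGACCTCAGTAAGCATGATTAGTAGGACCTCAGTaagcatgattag
A_30_P01019957: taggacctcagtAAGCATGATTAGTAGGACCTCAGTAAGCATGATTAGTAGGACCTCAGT
A_30_P01027289 had levels of 3.88, 2.67 and 3.25 in the vector samples and -0.47, -0.02 and -0.71 in the sh-U90926 samples. It fell by 3.67 ± 0.42 (12.7-fold, adjusted p from limma 0.0178), and 8.05-fold with normexp. A_30_P01030868 fell by 3.60 ± 0.45 (adjusted p 0.0224), with values in each array close to those of its partner. On the opposite strand, A_30_P01019957 went from 1.35, 0.05 and 0.66 to -2.05, -2.03 and -2.53, and fell by 2.89 ± 0.43 (adjusted p 0.0370). In all 3 probes vector replicate 1 was the highest sample, and the groups did not overlap. A_30_P01017545 differed by -2.61 ± 0.48 (adjusted p 0.0667) and A_30_P01022559, also of the opposite strand, by -2.08 ± 0.42 (adjusted p 0.0899), which did not pass. A_30_P01022775, of the opposite strand and reaching into the repeat from its upstream side, differed by -2.32 ± 0.49 (adjusted p 0.0973). With the replicate block the first 2 of these passed (0.0235 and 0.0392), and with the slide as a block neither these 2 nor the 3 that fell did (adjusted p 0.0632 to 0.981). Members of this group share sequence and are not independent, and other genomic copies of the unit were not searched for here.

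A_30_P01032258 was the remaining probe past the threshold that matched a RefSeq promoter by the rule for named probes. It is the reverse complement, over 60 bases, of the window of Gm2427 (chr1:85496180-85496479, plus strand, GRCm38.p6), a predicted gene.
A_30_P01032258: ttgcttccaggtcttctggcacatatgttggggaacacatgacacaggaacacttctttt
Its levels were 4.17, 3.80 and 4.07 in the vector samples and 1.72, 2.22 and 1.31 in the sh-U90926 samples, and fell by 2.26 ± 0.37 (4.78-fold; adjusted p from limma 0.0489), a call lost with the slide as a block (adjusted p 0.448). In all, 257 A_30 probes shared at least 30 bases with a promoter window, 113 on the gene's strand and 153 on the opposite strand. Of these 257, 4 passed the limma test, all of them lower, and 3 of the 4 are the overlapping probes of the Gm36117 repeat. Falls made up 0.407% of all A_30 probes and 0.563% of all probes, and 5 of 556 older catalogue probes with a promoter match fell, so nothing is read from this count. The opposite-strand matches were brighter (median level -0.81, 62.7% well above background on all 6 arrays) than the same-strand matches (-1.94, 46.0%). The windows hold only the first 50 transcribed bases, so most exons could not be matched.

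Probes past the threshold are set here beside probes that share sequence with them. The pairs were chosen because a member had passed, and both members were read on the same 6 arrays. The second probe is therefore not an independent repeat. A_30_P01027543 and A_30_P01021884 share 34 bases (capitals), which hold AATAAA, and differ around them.
A_30_P01027543: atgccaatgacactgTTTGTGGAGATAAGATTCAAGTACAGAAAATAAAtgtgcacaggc
A_30_P01021884: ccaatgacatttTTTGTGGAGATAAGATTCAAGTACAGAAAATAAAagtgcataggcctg
A_30_P01027543 went from 4.10, 3.57 and 4.41 to -1.69, -2.63 and 0.37. It fell by 5.34 ± 0.74 (40.5-fold, adjusted p from limma 0.0318), and 19.1-fold with normexp. A_30_P01021884 went from 4.21, 2.48 and 3.35 to 0.79, -1.27 and 1.22, a difference of -3.10 ± 0.74 that did not pass (adjusted p 0.139). Both were lowest in sh-U90926 replicate 2. A_30_P01026716 shares 57 bases (capitals) with the catalogue probe A_55_P2094524.
A_30_P01026716: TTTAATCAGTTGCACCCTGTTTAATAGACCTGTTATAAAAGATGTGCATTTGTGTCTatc
A_55_P2094524: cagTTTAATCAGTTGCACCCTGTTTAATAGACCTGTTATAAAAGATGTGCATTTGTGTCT
The first fell by 2.49 ± 0.40 (adjusted p 0.0465, but 0.467 when the slide was the block), and the second differed by -2.59 ± 0.49 (adjusted p 0.0745), a similar size on either side of the threshold. Across strands, A_30_P01031957 fell by 3.79 ± 0.54 (adjusted p 0.0334), from levels of 3.54, 2.89 and 3.53 to -0.48, -1.45 and 0.52. The catalogue probe A_55_P2173210, complementary over 37 bases, differed by -3.64 ± 0.61 (adjusted p 0.0535) from levels of 6.17, 5.54 and 6.39 to 2.33, 1.25 and 3.59. The groups did not overlap in either probe, and with the slide as a block neither passed (adjusted p 0.0820 and 0.167).
A_30_P01031957: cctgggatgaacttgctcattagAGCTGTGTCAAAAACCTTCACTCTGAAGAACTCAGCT
A_55_P2173210: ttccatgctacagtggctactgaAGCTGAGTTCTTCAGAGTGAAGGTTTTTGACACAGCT
Among opposite-strand A_30 pairs, 12 had a member past the threshold; both passed in 4. Of these 12, 5 were probes of the Gm36117 repeat paired with one another (2 of the 4), which leaves 7 elsewhere (the other 2).

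Rises were fewer. A_30_P01033385 was the only 1 of the 10 well above background on all 6 arrays. Its levels were -2.40, -1.86 and -1.96 in the vector samples and 0.14, 0.62 and 0.52 in the sh-U90926 samples, a rise of 2.50 ± 0.34 (5.66-fold; adjusted p from limma 0.0307). A_30_P01021014, complementary to it over 44 bases and named after its values were seen, lay between 0.83 and 1.04 in all 6 samples and differed by 0.02 ± 0.31. The difference between these partners was not tested. A_30_P01019163 was not well above background on any vector array. By its bound on the processed signal it was 4.27-fold higher, and with normexp 1.41-fold (signals of 5.53, 11.2 and 7.19, then 52.6, 68.1 and 51.3, adjusted p from limma 0.0372). A_30_P01030957 was 3.78-fold higher by the same kind of bound and 1.47-fold higher with normexp (5.04, 8.57 and 6.44, then 42.6, 68.1 and 44.0, adjusted p from limma 0.0338). In both, every sh-U90926 sample lay above every vector sample. With the slide as a block none of these 3 rises passed (adjusted p 0.188, 0.202 and 0.120 in the order given), and with normexp A_30_P01033385 was 2.54-fold higher. The next probes by size among those well above background throughout did not pass. A_30_P01026878 had levels of 0.10, -0.48 and -0.39 and then 2.12, 2.26 and 1.28 (difference 2.14 ± 0.40, adjusted p 0.0703). A_30_P01027318 differed by 2.10 ± 0.43 (adjusted p 0.0906), and with the replicate block both passed (0.0203 and 0.0197). A_30_P01023554 differed by 2.18 ± 0.72 (adjusted p 0.318), with sh-U90926 replicate 2 close to the vector samples.

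Set against older catalogue probes of the same level, A_30 probes had fewer rises. All probes of both kinds were placed in 10 bins of equal size by mean level. At the share of rises that the older probes had in each bin, 44.1 A_30 probes would have been higher, and 10 were. For falls the same count was 80.8, and 65 were lower. With the replicate block 485 would have been higher against 234, and 347 lower against 269. With only the first spot of each probe, which gives both kinds equal spotting, 25.8 would have been higher against 6, and 60.9 lower against 47. The ratio of observed to level-matched rises was below that of falls in each fit with a call in both directions, the block, the filters and the other normalizations among them. The bins are matched on level alone, and no test over probes was made because probes are not replicates.

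The shift of all A_30 probes together was small, and the groups overlapped. In each array the median deviation of A_30 probes from their own mean was set against that of older probes in the same bin. The A_30 shift was 0.07, 0.03 and -0.01 in vector replicates 1 to 3 and 0.05, -0.03 and -0.12 in sh-U90926 replicates 1 to 3. The groups differed by -0.06 (exact permutation test, two-sided, n = 3 against 3, p = 0.4). Within same-numbered pairs it was -0.02, -0.05 and -0.11, all below 0 (exact sign-flip test, two-sided, p = 0.25, the smallest that 3 pairs allow). By level, the median A_30 difference was below that of the older probes by 0.11 to 0.20 in the 5 brightest bins, and within 0.06 of it in the 5 dimmest. Over all A_30 probes the median difference was -0.04, against -0.03 for all probes. Scaled to probes well above background on all 6 arrays, the median of all probes moved to 0.18 and that of A_30 probes to 0.17.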

How the data were processed

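Each deposited file holds, per the file headers, 1 array's spot intensity (background-corrected processed signal) with quality flags, not normalized between arrays; the submitters' processing notes name version 10.7.1.1 of Agilent Feature Extraction. Per the labels' protocols, Cy3-labelled cRNA was made from 0.2 µg of RNA. A deposited table holds the authors' log2 values of some probes; its normalization and selection are not given in the sources used here. Outlier spots were left out (0 to 3 A_30 spots per array; 0 were saturated), spots of a probe averaged as log2, and the array's 75th percentile subtracted. Duplicate A_30 spots had a median SD of 0.129 to 0.163 (log2); the number of arrays limits precision. All 91172 probes with values were tested without a filter in limma 3.58.1 (R 4.3.3, lmFit and eBayes, 2-sided, no block, adjusted p under 0.05); overlaps used Python 3.11.15. Differences are sh-U90926 minus vector. Bounds set the bright group's mean against the dim group's mean of, per array, the higher of the probe's value and the lowest value well above background. They apply to the processed signal alone.

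Same-numbered samples deviated together (correlations over all probes 0.691, 0.702 and 0.567, each above 0.1), and replicate 1 of both groups forms scan run 1. No label states a pairing, so the main fit has no block and the replicate number was a block in alternatives. SEs and adjusted p-values given without a named block ignore this joint deviation. Only slide 2 held both groups, so values with the slide as a block rest on vector replicate 2 against sh-U90926 replicates 2 and 3.

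The members, lists and rules were chosen with earlier results of these data known. Named probes were up to 5 per direction by size among those well above background on all 6 arrays, up to 5 with a bound, up to 5 same-strand sets, the 3 brightest, up to 5 promoter matches and up to 3 opposite-strand pairs. Probes could be named only by a match to RefSeq promoter windows, which hold 50 transcribed bases; this search found 0 of 49 cell type marker genes, which were not analysed here. The scripts were tested on simulated data. Alternatives covered background correction, normalization, filters, blocks, scan run, spots and each array left out.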

Additional observations from a re-analysis of the deposited data

How the results depend on the processing

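The cause of each change given here was not tested. The count of A_30 probes higher or lower (10 and 65) became 96 and 221 with the filter on at least 1 group, 20 and 150 with the filter on all 6 arrays, 234 and 269 under the replicate block, 559 and 244 with the block and the scaling to probes well above background on all 6 arrays, 6 and 35 when the slide was the block, 36 and 109 when the scan run was, 0 and 5 in scan run 2 alone, 43 and 178 with a trended robust variance, and 0 and 9 at an adjusted p under 0.01. Normexp gave 13 rises and 172 falls (0.676% and 1.65% of all probes). The slide as a random block gave 33 rises and 83 falls (0.511% and 0.78% of all probes). Leaving out 1 array gave 0 to 1 rises and 0 to 48 falls. The next alternatives were chosen after seeing the data, with the shares of all probes higher and lower in parentheses. The replicate block gave 198 and 251 without pair 1 (2.29% and 2.09%) and 0 and 0 without pair 2 (0.0% and 0.0%). Without pair 3 it gave 19 and 90 (0.337% and 0.876%). With the filter on at least 1 group the block gave 594 and 521 (12.1% and 8.84%). With quantile normalization it gave 57 and 128 (0.828% and 1.1%), and with normexp 511 and 833 (6.02% and 6.54%). The first spot only gave 6 and 47 (0.158% and 0.406%). A fit without 1 array or pair assumes that a group of 2 varies like the rest.

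The level-matched shift (-0.06) stayed below 0 in every alternative, from -0.15 with the filter on all 6 arrays to -0.02 without sh-U90926 replicate 3; its block value, the mean of the pairs, was -0.06. The detection gap between groups (0.472 points) ran from -0.729 to 1.99 points when 1 array was left out. The lowest values were -0.602 (vector replicate 3 left out) and -0.729 (sh-U90926 replicate 1 left out), both below 0. Of 816 values of 32 named probes under an alternative, 145 lost and 67 gained the threshold. None changed sign where the probe passed in the main fit or in the alternative. Where a probe passed in neither, a change of sign was not counted if the value moved by less than its SE. For probes whose groups do not overlap, leaving out arrays cannot change the sign.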

Other observations

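The authors' deposited table of log2 values listed 6.20% of the older catalogue probes and 3.13% of the A_30 probes. Of its 4806 probes, 499 belonged to the A_30 series. In the authors' deposited table, 302 of these were lower and 197 higher in the sh-U90926 columns (60.5% lower), against 1011 lower and 1293 higher of the 2304 probes of the older catalogue series (43.9% lower). Every probe of the authors' deposited table differed by at least 1 on the log2 scale, and the 75 A_30 probes that passed the limma test were all listed. For all 499 the sign in the authors' deposited table was that of the scanner values. Each column of the authors' deposited table followed an array with the same group and a different replicate number: columns 1, 2 and 3 matched replicates 2, 3 and 1 in both groups.

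Of the A_30 probes, 16 shared at least 30 bases with a RefSeq miRNA hairpin (GRCm38.p6) or its complement, and 5 of these were well above background on all 6 arrays. The brightest was A_30_P01026685, complementary to the hairpin of Mir6516 over 32 bases (capitals).
A_30_P01026685: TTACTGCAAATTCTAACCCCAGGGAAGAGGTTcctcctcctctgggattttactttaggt
Its levels were 5.42, 5.14 and 4.69 in the vector samples and 5.11, 4.71 and 4.25 in the sh-U90926 samples, a difference of -0.39 ± 0.39 (limma, adjusted p 0.967). A_30_P01032185 holds 58 bases of the Mir8110 hairpin on the same strand and differed by -0.57 ± 0.32 (limma, adjusted p 0.739). A_30_P01031828 is complementary to that hairpin over 42 bases. Its levels were -5.05, -2.80 and -2.24 in the vector samples and -4.06, -2.12 and -1.79 in the sh-U90926 samples. The groups overlapped (difference 0.71 ± 0.87), although it was marked well above background on all 3 sh-U90926 arrays and on 0 vector arrays. Of the 16, 0 passed in limma at an adjusted p under 0.05, and 0 had an unadjusted p under 0.05; with 0.563% of all probes lower and 0.264% higher, nothing is read from so small a set.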
